A study of Rattus norvegicus with 29 samples.

Results

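Of the 29 libraries of the series, 6 carry the comparison described here: 3 from cultures of primary rat proximal tubule cells of the kidney exposed to acetaminophen for 6 h and 3 from such cultures exposed to gentamicin for 6 h. They were chosen by title and time label alone. Acetaminophen is an analgesic and gentamicin an antibiotic. The levels in 3 libraries with TCDD (a dioxin), 3 with trichloroethylene (a solvent) and 2 control libraries of 6 h are given beside them. So are those in 3 acetaminophen and 3 gentamicin libraries of 24 h. For the transcripts named by identifier, levels in the 24 h libraries with control, TCDD or trichloroethylene, 3 of each, are also given. The sources used here do not give the dose, the vehicle, or the strain, sex and age of the rats. The labels leave unsaid whether replicates are separate animals or cultures, and the p-values therefore cover only the spread among the libraries at hand, which may be technical.

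Proximal tubule cells reabsorb most of the filtered solutes and take up and convert many drugs, which makes them a frequent site of drug injury in the kidney. Acetaminophen is oxidised by cytochrome P450 enzymes to a reactive quinone imine that binds glutathione and, when glutathione runs short, cell proteins. Gentamicin, an aminoglycoside, enters these cells by megalin-dependent and cubilin-dependent endocytosis, collects in lysosomes and can bind ribosomal RNA. The deposited files name transcripts by Ensembl identifier only. The reference table used here gives an Ensembl identifier for 0 genes. The transcripts of these pathways therefore could not be picked out, and the labelled cell type could not be checked against its markers. The transcripts are described instead by level, length, time course and position relative to the other compounds, with 4 named by identifier.

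At 6 h the acetaminophen libraries stood far from the gentamicin libraries. Over the 15990 tested transcripts, the root mean square difference in log2 CPM (counts scaled to library size) was between 1.07 and 1.10 in the 9 acetaminophen-gentamicin library pairs. It was between 0.560 and 0.614 within acetaminophen and between 0.601 and 0.647 within gentamicin. Acetaminophen libraries lay 1.05 to 1.09 from the controls, while gentamicin libraries lay 0.706 to 0.754 from them, and the 2 controls differed from each other by 0.566. The acetaminophen libraries thus lay about as far from the controls as from gentamicin. In a principal component analysis of the 14 libraries of 6 h, the first component held 43.2% of the variance and set acetaminophen apart from every other library. The second, with 12.4%, set gentamicin apart.

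**Figure D1:**
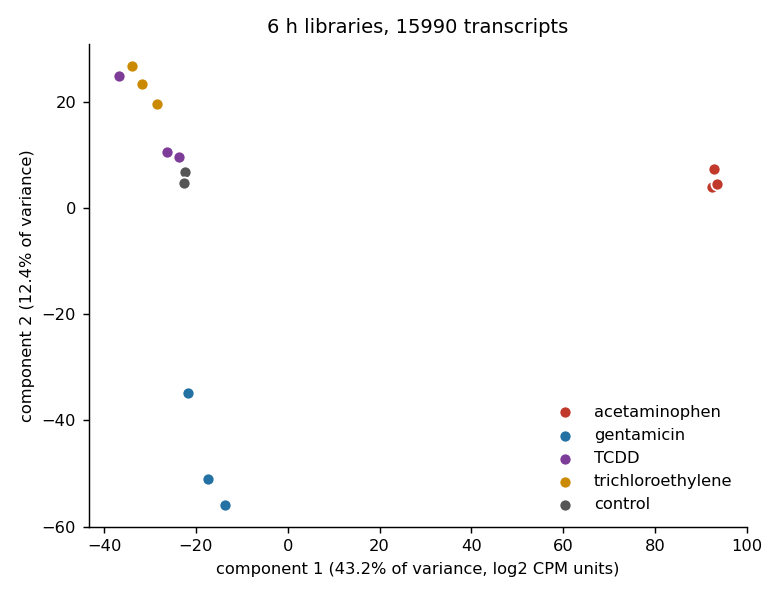
Principal components of log2 CPM over 15990 transcripts in the 14 libraries of 6 h, 1 point per library, in log2 CPM units. The 3 acetaminophen libraries lie between 92.4 and 93.6 on component 1, where all other libraries are below 0, and the 3 gentamicin libraries lie between -55.9 and -34.9 on component 2.

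Gentamicin replicate 3 stood apart from the other gentamicin libraries by a chi-square statistic, but not by the root mean square difference. On the latter it lay 0.601 from replicate 2 and 0.647 from replicate 1, and replicates 1 and 2 were 0.611 apart. The chi-square statistic on the counts of a library pair was 2.98 to 3.48 per degree of freedom within acetaminophen. It was 10.04 and 8.04 for the pairs of this library with gentamicin replicates 1 and 2, which gave 4.19 with each other. Within TCDD it ran from 3.51 to 14.1 and within trichloroethylene from 3.33 to 7.08, so high values were not particular to this library. All of these exceed the value near 1 of pure sampling noise, so none of the pairs is 1 library given again. That gentamicin library also had the longest fragments of the 6, at 261.2 bases. The fragment lengths were 246.6 to 251.6 bases with acetaminophen and 247.7 to 261.2 bases with gentamicin. The 6 libraries held between 8996315 and 11446612 estimated counts. In these bulk samples, fewer cells of a type and less RNA per cell cannot be told apart.

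Which transcripts separate the early responses was asked by testing acetaminophen against gentamicin directly. With edgeR's quasi-likelihood test, 8711 of the 15990 transcripts differed at an adjusted p under 0.05, or 54.5%. Of these, 4181 (26.1% of those tested) were higher with acetaminophen and 4530 (28.3%) were lower. Most differences were small. In 5383 of the called transcripts (61.8%) the difference was at most 2-fold. More than 2-fold differences numbered 1641 upward and 1687 downward, more than 4-fold differences 479 and 455, and more than 8-fold differences 159 and 137. The median fitted log2 difference was 0.83 among transcripts higher with acetaminophen and -0.80 among those lower. With transcripts that had no count in 1 group set at a floor of 3 counts in each library of that group, these medians were 0.82 and -0.79. The median SE of a called difference was 0.135 on the log2 scale.

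For nearly all calls the 2 groups did not overlap, which largely follows from the call itself, made on the same libraries. On CPM, the 3 acetaminophen and 3 gentamicin libraries did not overlap for 4117 of the 4181 higher calls and 4379 of the 4530 lower calls. Over all tested transcripts, 64.8% had groups that did not overlap, 32.1% with acetaminophen above and 32.7% with acetaminophen below. On TPM these shares were 24.3% (3887 transcripts) and 40.8% (6517). Complete on-off differences were few. With at least 10 counts in every acetaminophen library, 7 transcripts had no count in any gentamicin library, and 2 showed the opposite. Without gentamicin replicate 3, 7936 transcripts were called, 3806 higher and 4130 lower. The balance of directions moved with the scale. Higher calls were 48.0% of all calls, but 36.4% with limma on log2(TPM + 1), which moved the median over all tested transcripts by -0.12.

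**Figure D2:**
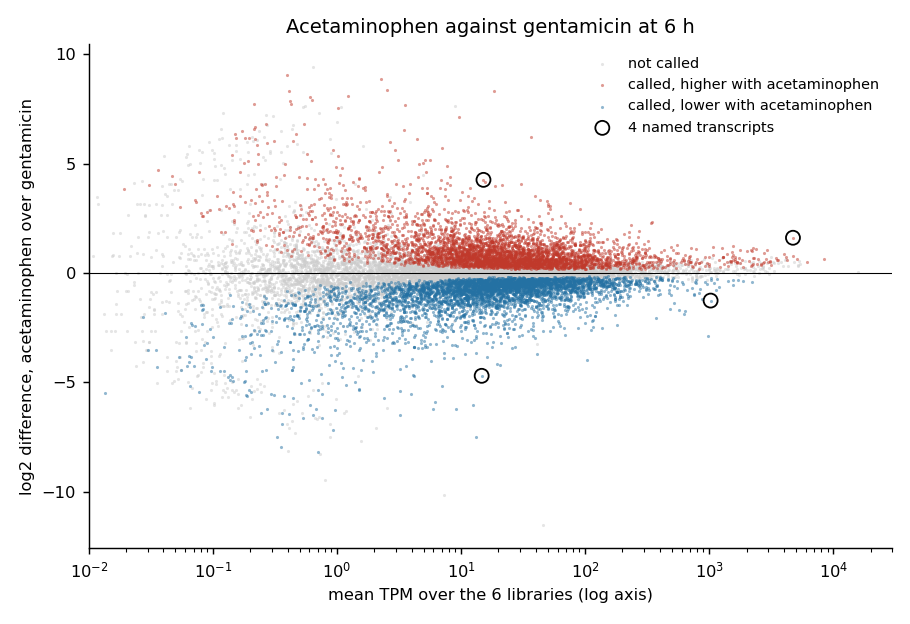
Log2 difference of acetaminophen over gentamicin at 6 h against the mean TPM over the 6 libraries (log axis), 1 point per transcript, with 90 transcripts under 0.01 TPM not drawn. Called transcripts are coloured by direction, with 4181 above 0 and 4530 below, and circles mark the 4 transcripts described by identifier.

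The 4 transcripts were taken by rule: in each direction, the largest difference among calls with at least 10 counts in all 6 libraries, and the most abundant among calls of more than 2-fold, in both cases with groups that did not overlap. The rule used the values of this contrast, so the values below describe what it picked. No gene name is given for any of them.

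ENSRNOT00000007247, 1803 bases long, had the largest upward difference among calls with at least 10 counts in all 6 libraries. Its level, in TPM (scaled for transcript length and library total), was 30.1, 28.2 and 27.6 TPM with acetaminophen, against 1.74, 1.37 and 1.96 TPM with gentamicin. The groups were far apart, and the gentamicin libraries lay at the level of the controls, at 1.73 and 1.49 TPM. The log2 difference was 4.26 ± 0.21 (SE; edgeR adjusted p = 2.4e-14), a 19.1-fold difference. Against control, acetaminophen gave 4.21 ± 0.25 (edgeR adjusted p = 9.1e-13) and gentamicin -0.05 ± 0.28 (adjusted p = 0.95). TCDD libraries held 1.12 to 2.01 TPM and trichloroethylene libraries 0.860 to 1.74 TPM at 6 h, so the acetaminophen libraries stood above all 11 others of that time. Its counts were whole in all libraries, which is what undivided reads give.

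ENSRNOT00000013608, of 1389 bases, was the most abundant transcript called higher by more than 2-fold, and ranked 10 by mean TPM over the 6 libraries. Acetaminophen libraries had 6831, 7206 and 6681 TPM, against 2646, 2370.45 and 2676 TPM with gentamicin. Both compounds lay outside the other libraries of 6 h on TPM, gentamicin below them and, by a smaller margin, acetaminophen above them. Controls held 6109 and 6043 TPM, TCDD libraries 6003 to 6029 TPM and trichloroethylene libraries 6002 to 6284 TPM. The log2 difference between acetaminophen and gentamicin was 1.61 ± 0.10 (SE; edgeR adjusted p = 1.5e-12). Gentamicin lay below control by a log2 difference of -1.36 ± 0.11 (edgeR adjusted p = 3.1e-09), and acetaminophen gave 0.25 ± 0.11 (adjusted p = 0.071). In some libraries its estimated count was not whole, so reads were shared with another transcript and divided by the authors' tool.

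ENSRNOT00000016289, a long transcript of 4985 bases, had the largest downward difference among calls with at least 10 counts in all 6 libraries. It stood at 1.06, 1.01 and 0.797 TPM with acetaminophen, against 30.8, 29.2 and 25.3 TPM with gentamicin. Both compounds differed from control, at 15.3 and 16.3 TPM, and on opposite sides of it. The log2 difference between the compounds was -4.71 ± 0.13 (SE; edgeR adjusted p = 1.6e-18). It was -3.98 ± 0.14 for acetaminophen against control (edgeR adjusted p = 8.3e-17) and 0.73 ± 0.11 for gentamicin against the same controls (adjusted p = 5.5e-05). The TCDD libraries, at 21.0 to 22.9 TPM, and the trichloroethylene libraries, at 18.4 to 20.1 TPM, also lay above both controls. Its counts were whole in all libraries.

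ENSRNOT00000047859, only 291 bases long, was the most abundant transcript called lower by more than 2-fold. Acetaminophen libraries had 571, 561 and 510.0 TPM, against 1471, 1635 and 1415 TPM with gentamicin. These rest on 493, 428 and 345 estimated counts with acetaminophen and on 961, 1039 and 953 with gentamicin, since so short a transcript yields few reads per TPM. The gentamicin libraries lay near the controls, at 1571 and 1312 TPM, and the acetaminophen libraries below both. TCDD libraries held 1192 to 1496 TPM and trichloroethylene libraries 1121 to 1289 TPM at 6 h. The trichloroethylene libraries thus also lay below both controls, though above acetaminophen. The log2 difference was -1.27 ± 0.16 (SE; edgeR adjusted p = 1.6e-07). Against control, acetaminophen gave -1.22 ± 0.17 (edgeR adjusted p = 1.3e-06) and gentamicin 0.04 ± 0.17 (adjusted p = 0.92). Its estimated counts were not whole in some libraries.

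**Figure D3:**
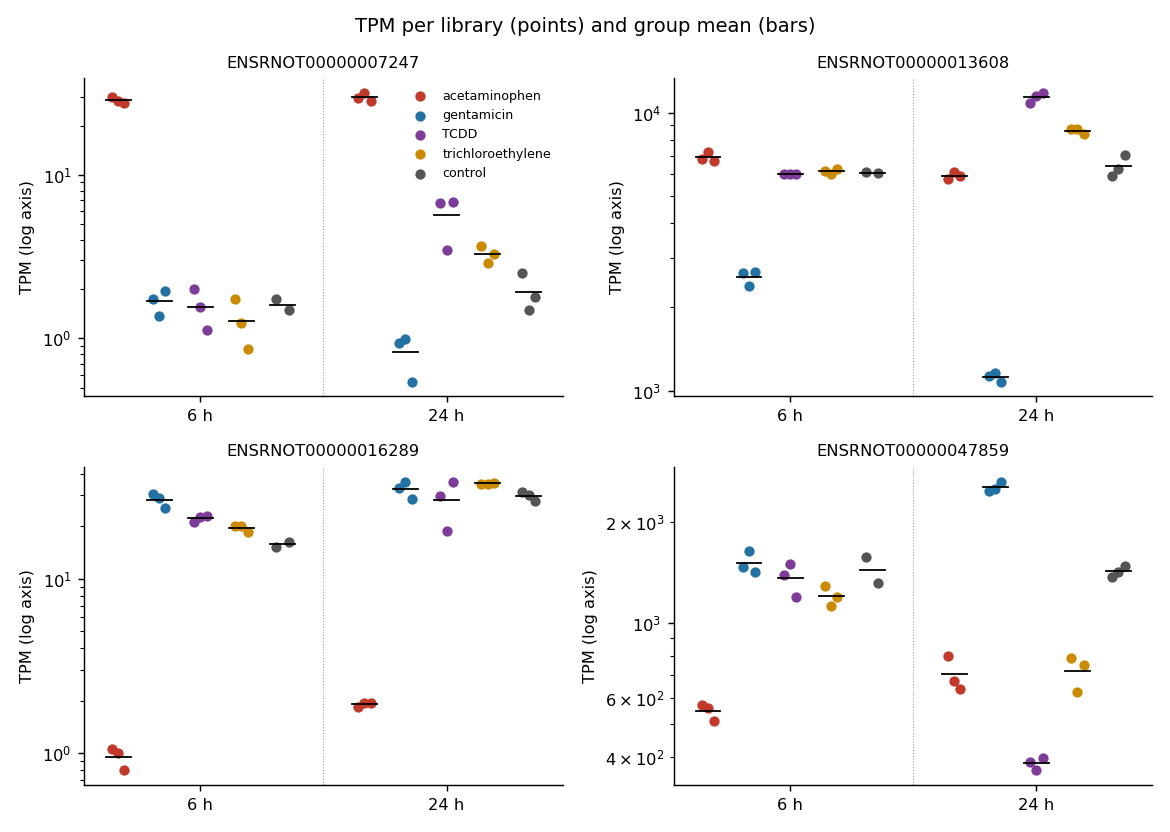
TPM (log axis) of the 4 transcripts in every library, as points, with the group mean as a bar, at 6 h on the left and 24 h on the right of each panel. At 6 h acetaminophen stands apart from the other groups for all 4 transcripts, by the smallest margin for ENSRNOT00000013608, and gentamicin lies outside the other groups for ENSRNOT00000013608 (below) and ENSRNOT00000016289 (above).

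For most calls it was the acetaminophen libraries that lay away from the other cultures. Among the 4181 transcripts higher with acetaminophen than with gentamicin, 3134 (75.0%) passed the edgeR test above control with acetaminophen and 12 below, where 24.2% and 24.5% of all tested transcripts did so. With gentamicin, 429 of the same transcripts (10.3%) passed below control and 312 above, where the shares of all tested transcripts were 4.88% and 8.34%. Among the 4530 transcripts lower with acetaminophen, 3305 (73.0%) were below control with acetaminophen and 83 above, and with gentamicin 724 (16.0%) were above control and 151 below. These comparisons share the acetaminophen, gentamicin and control libraries with each other, so these counts describe levels and are no independent evidence. The gentamicin counts also rest on few controls: 2113 transcripts passed against control (13.2% of those tested), 881 without control replicate 2 and 980 without control replicate 3. With acetaminophen 7799 passed (48.8%), and 6331 and 6265 without those controls.

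The TCDD and trichloroethylene libraries give a wider view of where each compound lay at 6 h. In 3399 of the transcripts called higher with acetaminophen (81.3%), all 3 acetaminophen libraries were above all 11 other libraries of 6 h on CPM. In 572 (13.7%), all 3 gentamicin libraries were below all 11 others. In 299 of them both held. Of the transcripts called lower, acetaminophen was below all 11 others in 3318 (73.2%), gentamicin above all 11 others in 822 (18.1%), and both held in 367. Across all tested transcripts, acetaminophen was above all others in 23.7% and below in 22.4%, and gentamicin in 5.75% and 4.07%. In 1266 called transcripts neither compound lay outside all other libraries.

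Sizes at 6 h were also described for the transcripts in which 1 compound alone stood out. Among all calls, 39.5% of the higher and 38.0% of the lower had a fitted difference of more than 2-fold, with medians of 0.83 and -0.80. Of the 3100 called higher in which acetaminophen, and not gentamicin, lay outside all others, 42.7% differed by more than 2-fold, with a median log2 difference of 0.88. Of the 273 in which gentamicin alone lay outside, 12.1% did, with a median of 0.54. In the downward direction the shares were 37.1% of 2951 transcripts (median -0.81) for acetaminophen alone and 33.2% of 455 (median -0.69) for gentamicin alone. These sets were chosen on the values that are summarised, so the medians are given without a test.

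How the calls fell along the range of levels was examined in classes by mean TPM in the 6 h controls, libraries that are in neither group of the contrast. The direction of the calls varied along the classes, which were not tested against each other. Among the 169 transcripts above 1000 TPM in control, 66 (39.1%) were higher with acetaminophen and 16 (9.47%) lower, and the median log2 difference was 0.38. Among the 1399 at 100 to 1000 TPM, 319 (22.8%) were higher and 453 (32.4%) lower, with a median of -0.02. The 7082 transcripts at 10 to 100 TPM had 28.9% higher and 35.5% lower, and the 2529 at up to 1 TPM had 17.2% higher and 11.7% lower. The median of the class above 1000 TPM stayed above that of all transcripts by 0.33 to 0.41 in 11 other settings and by 0.31 without gentamicin replicate 3.

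The most abundant class also held a larger share of all TPM with acetaminophen than with gentamicin. Its 169 transcripts held 40.2% to 40.9% of all TPM in the acetaminophen libraries, against 33.9% to 35.7% in the gentamicin libraries. The groups did not overlap. Controls held 38.7% to 39.0%, but the TCDD libraries (34.3% to 36.7%) and the trichloroethylene libraries (35.3% to 37.1%) lay close to gentamicin or just above it. The class was defined in the controls, which bears on the control value and not on the contrast between the compounds. Against those controls the median log2 difference of the class was 0.13 with acetaminophen and -0.22 with gentamicin. The 6 h separation was seen in the 123 members of at most 1000 bases. These held 30.7% to 31.6% of all TPM with acetaminophen and 24.7% to 26.8% with gentamicin. For the 46 longer members the groups overlapped, at 9.34% to 9.48% and 8.86% to 9.41%. At 24 h the class held 33.5% to 37.3% of all TPM with acetaminophen, against 26.4% to 30.0% with gentamicin, again without overlap. In that contrast 24.9% of the class were called higher and 28.4% lower. The balance of calls at 24 h depended on the scale: over all transcripts 49.5% of calls were higher with the factors used here, and 69.2% with total counts as the scale.

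Transcript length went with direction as well. The tested transcripts were put in 5 equal classes by length. In the shortest class, 78 to 1143 bases, 22.9% were higher with acetaminophen and 16.6% lower. In the longest class, 3455 to 25698 bases, 24.8% were higher and 34.7% lower. The median log2 difference was 0.11 in the shortest class and -0.12 in the longest. Against control these medians were 0.04 and -0.02 with acetaminophen, and -0.09 and 0.10 with gentamicin. The shortest class held 55.3% to 56.2% of all TPM with acetaminophen, 48.8% to 51.6% with gentamicin and 53.7% to 54.4% in controls. TCDD (47.5% to 51.1%) and trichloroethylene (49.1% to 51.0%) lay near gentamicin, so a low share was not particular to it. Level and length overlap, since 123 of the 169 transcripts above 1000 TPM had at most 1000 bases. Of those 123, 51 (41.5%) were higher and 5 (4.07%) lower, while of the other 46 longer ones 15 (32.6%) were higher and 11 (23.9%) lower. The gap between the shortest and longest classes was 0.24, and 0.18 with fragment length as a covariate, 0.18 without gentamicin replicate 3 and 0.13 with limma on log2(TPM + 1). The part of fragment length in the gap was otherwise not tested.

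**Figure D4:**
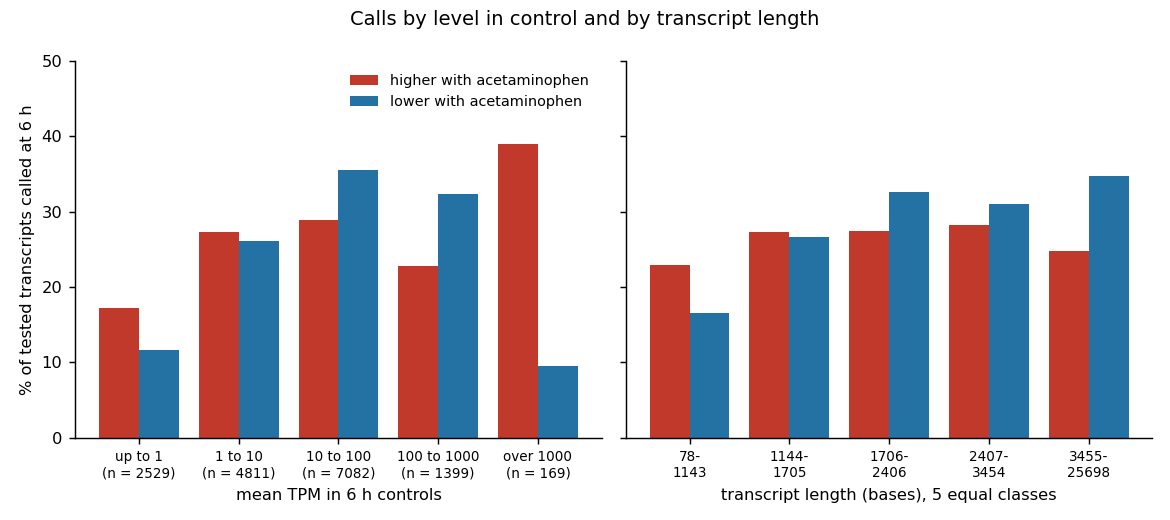
Share of tested transcripts called higher (red) or lower (blue) with acetaminophen than with gentamicin at 6 h, by mean TPM in the 6 h controls (left) and by 5 equal classes of transcript length (right). Above 1000 TPM 39.1% were higher and 9.47% lower, and the longest class had 24.8% higher and 34.7% lower.

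Calls were also counted apart for transcripts whose reads were not divided. In 9535 tested transcripts every estimated count was whole in all 29 libraries, and 30.6% of these were higher with acetaminophen and 30.9% lower. Among the 6455 with a count that was not whole in some library, 19.5% were higher and 24.5% lower. The median level in control was 16.2 TPM in the first set and 7.00 TPM in the second.

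Whether the early separation lasted was asked in the acetaminophen and gentamicin libraries of 24 h, which share no library with the comparison at 6 h. There 10709 transcripts differed (67.0% of those tested), 5297 higher with acetaminophen (33.1%) and 5412 lower (33.8%). Of the 4181 transcripts higher at 6 h, 2906 (69.5%) were again higher, 485 (11.6%) were lower and 790 did not pass. Of the 4530 lower at 6 h, 3011 (66.5%) were again lower, 479 (10.6%) were higher and 1040 did not pass. The 5917 transcripts that kept their direction made up 67.9% of the 6 h calls and 55.3% of the 24 h calls. Among the 7279 transcripts not called at 6 h, 26.3% were higher and 26.3% lower at 24 h. At 24 h 49.5% of calls were higher with acetaminophen, but 69.2% when scaled by total counts and 63.8% with limma on log2(TPM + 1), which moved the median over all tested transcripts by 0.44 and 0.23.

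Most of the large early differences kept their sign. Of the 934 transcripts that differed by more than 4-fold at 6 h, 862 (92.3%) had the same sign at 24 h. Of the 479 upward ones 415 (86.6%) passed again and 10 passed in the other direction, and of the 455 downward ones 346 (76.0%) passed again and 13 in the other direction. Over all tested transcripts, 33.1% were higher and 33.8% lower at 24 h. The median log2 difference went from 2.65 to 2.47 in the upward set and from -2.62 to -1.89 in the downward set. Choice by size at 6 h favours such shrinking. Across all 15990 transcripts, taken as a description since transcripts are not replicates, the log2 differences at 6 h and 24 h had a Pearson r of 0.50 and a Spearman rho of 0.55. The points share the transcript set, its lengths and the annotation, but no library.

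**Figure D5:**
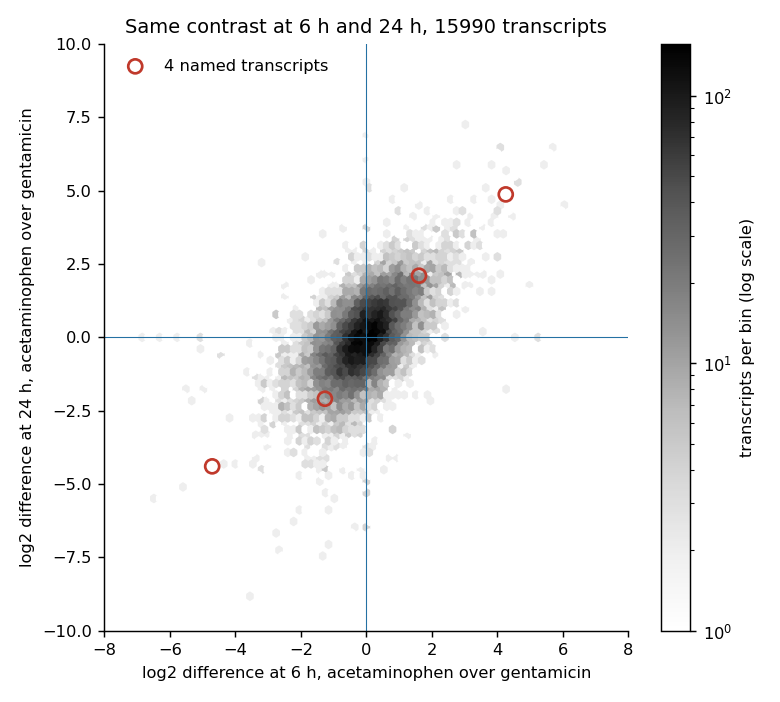
Log2 difference of acetaminophen over gentamicin at 24 h against that at 6 h for 15990 transcripts, as hexagonal bins shaded by the number of transcripts (log scale), with 19 transcripts beyond the plotted range. The 4 named transcripts, circled, lie in the upper right and lower left, and r over all transcripts is 0.50.

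Direction was kept at 24 h in both kinds of transcript, those in which acetaminophen and those in which gentamicin had been the compound apart at 6 h. Where acetaminophen alone had lain outside, 2106 of 3100 (67.9%) were again higher and 1907 of 2951 (64.6%) again lower. Their medians were 0.88 at 6 h and 0.78 at 24 h, and -0.81 and -0.63. Of the 455 transcripts in which gentamicin alone lay above all other 6 h libraries, 369 (81.1%) were again lower with acetaminophen at 24 h, and their median log2 difference was -0.69 at 6 h and -1.33 at 24 h. Of the 273 in which gentamicin alone lay below, 205 (75.1%) were again higher, with medians of 0.54 and 0.77. Over all calls of 6 h, 69.5% of the higher were again higher and 66.5% of the lower again lower. Over all tested transcripts, 33.1% were higher and 33.8% lower at 24 h. Whether the shares differ between the sets was not tested.

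The change of the compound difference between the times was itself tested by an interaction contrast. It passed for 7263 transcripts (45.4% of those tested), 3657 (22.9%) with a more positive difference at 24 h and 3606 (22.6%) with a more negative one. The share of positive interactions was 50.4%, but 78.5% with total counts and 77.5% with limma on log2(TPM + 1). Of the transcripts higher at 6 h, 2045 passed, 1203 toward a smaller or opposite difference at 24 h and 842 with a larger one. Of those lower at 6 h, 2581 passed, 1511 toward a smaller or opposite difference and 1070 toward a larger one. These were picked by the 6 h call, which favours movement against it. All 964 transcripts called in opposite directions at the 2 times passed the interaction test. This is no separate evidence, since their interaction adds the sizes of 2 differences that were each called. The same selection applies to them.

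Each of the named transcripts kept its direction at 24 h. ENSRNOT00000007247 had a log2 difference of 4.87 ± 0.23 (SE, edgeR adjusted p = 3.4e-15), with 28.2 to 31.7 TPM with acetaminophen, against 0.542 to 0.997 TPM with gentamicin. ENSRNOT00000016289 gave -4.40 ± 0.12 (edgeR adjusted p = 2.4e-19), with 1.84 to 1.94 TPM with acetaminophen, against 28.5 to 36.0 TPM with gentamicin. The interaction of ENSRNOT00000007247 was 0.62 ± 0.34 on the log2 scale and did not pass (edgeR adjusted p = 0.14), but it was 1.08 and passed with total counts as the scale (edgeR adjusted p = 0.011). That of ENSRNOT00000016289 was 0.31 ± 0.18 and did not pass (edgeR adjusted p = 0.18), but it was 0.77 and passed with total counts (edgeR adjusted p = 0.0023). Whether these differences changed between the times therefore depended on the scale.

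The interactions of the abundant pair passed, with sizes that depended on the scale. ENSRNOT00000013608 held 5779.57, 6106 and 5914 TPM with acetaminophen at 24 h, against 1126, 1159 and 1076 TPM with gentamicin. At that time controls held 5935 to 7027 TPM, TCDD 10812 to 11777 TPM and trichloroethylene 8356 to 8735 TPM. Acetaminophen thus no longer lay above the other libraries, and gentamicin lay below them all. The log2 difference between the compounds was 2.10 ± 0.10 at 24 h, and the interaction was 0.50 ± 0.14 (edgeR adjusted p = 0.0052), or 0.96 with total counts as the scale (edgeR adjusted p = 4.7e-07). ENSRNOT00000047859 held 800.2, 675 and 636 TPM with acetaminophen, against 2468, 2512 and 2634 TPM with gentamicin. Its log2 difference was -2.09 ± 0.16, with an interaction of -0.82 ± 0.22 (edgeR adjusted p = 0.003). With total counts its interaction was -0.36 and did not pass (edgeR adjusted p = 0.15). Its gentamicin libraries at 24 h lay above the 24 h controls, at 1373 to 1481 TPM, where at 6 h they had lain near the controls of that time. Acetaminophen lay below those 24 h controls, and so did TCDD, at 364 to 396 TPM, and trichloroethylene, at 624 to 785 TPM. The low level at 24 h was therefore not particular to acetaminophen.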

How the data were processed

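Messenger RNA was sequenced in 29 libraries, and the comparison used the 3 acetaminophen and 3 gentamicin libraries of 6 h. TRIzol extraction and DNA removal are given per the labels' protocols, and kallisto 0.43 as the authors' quantifier per the submitters' processing notes. Per the file headers, the deposited tables list 28420 transcripts with their length, effective length, estimated count and TPM. Of the authors' estimated counts, 20.1% were not whole. The deposited TPM values are the authors' counts scaled by effective length and library total. For the transcript set, strand setting and trimming, the sources used here say nothing.

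Estimated counts were rounded. The filterByExpr filter (minimum count 10) kept 15990 transcripts, with 99.95% of counts. With edgeR 4.0.16 in R 4.3.3, TMM factors and 1 robust quasi-likelihood model over all 29 libraries were used, with a coefficient per group and 19 residual degrees of freedom. Each comparison was a contrast, and a call needed an adjusted p (Benjamini-Hochberg, over all tested transcripts) under 0.05. The SE is the log2 difference divided by the square root of F. CPM values use TMM-scaled library sizes. Fragment length is the mean gap between length and effective length in transcripts of 1000 bases or more. The steps were tested on simulated counts with few transcripts changed, in both directions. Such counts do not check the scaling where as many transcripts differ as here.

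Transcript classes, the rule for the 4 named transcripts and the tests were chosen with earlier results of these data known. Gene lists could not be used without gene names. Alternatives were DESeq2 1.42.0, limma 3.58.1 on log2(TPM + 1) and log2(TPM + 0.1), median-of-ratios factors, total counts, a filter at 10 CPM, no low-count filter, only the compared groups, a replicate block, fragment length as a covariate, no robust dispersion, and each library left out in turn. The labels give no batch or date.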

Additional observations from a re-analysis of the deposited data

Results flagged for a closer look

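The difference between acetaminophen and gentamicin changed between the times for 7263 transcripts by the interaction test of edgeR. Among the named transcripts, the log2 interaction was 0.5 for ENSRNOT00000013608 and -0.82 for ENSRNOT00000047859, in both cases toward a larger difference at 24 h. With total counts as the scale they were 0.96 and -0.36, and the second no longer passed (edgeR adjusted p = 0.15). No group of 6 h or 24 h has more than 3 libraries, so single libraries were not screened as outliers by a rule of their own.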

How the results depend on the processing

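The count of transcripts that differed between acetaminophen and gentamicin at 6 h, 8711, ran from 7528 with the filter at 10 CPM to 9095 with only the compared groups in the fit. It ran from 7936 to 8156 with 1 of the 6 libraries left out. Calls higher with acetaminophen numbered 3017 to 4488 over those settings, and calls lower 3863 to 5411. The named transcripts kept direction and call at 6 h in all settings. Their 24 h differences and interactions were run in the same settings, a choice made after the data were seen: the 24 h differences kept direction and call, and the interactions kept direction. With total counts and with limma on log2(TPM + 0.1), the interactions of ENSRNOT00000007247 (1.08 and 1.03) and ENSRNOT00000016289 (0.77 and 0.74) passed, and with total counts that of ENSRNOT00000047859 (-0.36) did not. The 24 h count ran from 8716 to 11265, the interaction count from 6411 to 8543, and the calls that kept their direction at 24 h from 5091 to 6119. Gentamicin against control gave 881 to 1687 with a library left out and 1637 to 3146 otherwise. Acetaminophen against control gave 6265 to 7229 and 6849 to 9154. The gap between the shortest and longest length classes, 0.24, was 0.13 with limma on log2(TPM + 1), 0.18 with the fragment length covariate, 0.18 without gentamicin replicate 3 and 0.31 with the filter at 10 CPM. The SD of this gap over the 9 pairs of libraries was 0.09. Those pairs reuse the same 6 libraries, so they are not 9 independent values. The cause of the gap was not tested.

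Libraries with the same replicate number did not deviate together: their correlations ran from 0.0038 to 0.013 at 6 h and from -0.092 to 0.030 at 24 h. With the replicate block, 8612 transcripts were called at 6 h, 10620 at 24 h, 7163 by the interaction, 7631 for acetaminophen against control and 1964 for gentamicin against control. Summing per gene was not run, since transcripts could not be paired with genes. By level in control, 28.8% of transcripts were called at up to 1 TPM, 53.4% at 1 to 10, 64.4% at 10 to 100, 55.2% at 100 to 1000 and 48.5% over 1000 TPM.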
